A study of Mus musculus with 25 samples.

Results

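The genes described here encode the translation initiation and elongation factors of the mouse. They were taken from the gene column of 3 deposited tables as all symbols that begin with Eif1 to Eif6, Eef1 or Eef2, and 64 of the 24411 genes of each table met this rule. By their role, 45 are initiation factors, 6 are elongation factors (Eef1a1, Eef1a2, Eef1b2, Eef1d, Eef1g and Eef2), 9 are regulators (kinases of eIF2 and eEF2, eIF4E-binding proteins and an eIF4E transporter) and 4 are other genes with such a name. Eif5a and Eif5a2 are counted among the 45 by their name, although eIF5A eases peptide bonds at difficult codons. RNA came from hippocampal nuclei of male mice, sorted for the neuronal nuclear antigen NeuN, with 25 libraries in all. The aging experiment compared wild-type mice, 3 young (3 months) and 2 aged (18 months). In the overexpression experiment, young mice (3 months) had received lentivirus into CA1 and dentate gyrus that drove Ftl1, the light chain of the iron store ferritin, from the neuronal synapsin-1 promoter (7 libraries, Ftl1 OE), or a control virus with GFP alone (5 libraries, OE control). In the knockdown experiment, aged mice (18 months) had received a virus with a short hairpin RNA against Ftl1 (4 libraries, Ftl1 KD) or against luciferase (4 libraries, KD control). All virus groups thus share the injection of a lentivirus, the vector was shared within each virus experiment only, and nuclei were sorted for NeuN and not for the virus. Where the labels do not tie a library to a mouse, p-values measure the spread between libraries.

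Translation of an mRNA starts when eIF2 delivers the initiator tRNA to the small ribosomal subunit, eIF3 scaffolds that subunit, and the eIF4 proteins bind the cap and unwind the leader. After the start codon is found with the help of eIF1 and eIF1A, eIF5 and eIF5B let the large subunit join. eEF1A then brings each aminoacyl-tRNA, the eEF1B subunits recharge it with GTP, and eEF2 moves the ribosome by one codon. Many mRNAs of this machinery, those of the elongation factors foremost, begin with a pyrimidine tract (5′ TOP) by which mTOR controls their translation, as do the mRNAs of ribosomal proteins. In adult neurons and muscle, eEF1A2 is known to take over from eEF1A1.

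Several factors exist as pairs of paralogues, and how far a read can tell a pair apart depends on its sequence. The coding starts of both eEF1A genes are shown because the comparison of Eef1a2 with Eef1a1 rests on telling them apart. Eef1a1 lies on chromosome 9 (78478449 to 78489151, minus strand) and Eef1a2 on chromosome 2 (181147653 to 181157014, minus strand) of GRCm38. The first 90 coding bases in GENCODE M21 differ at 15 positions, given in capitals.
Eef1a1: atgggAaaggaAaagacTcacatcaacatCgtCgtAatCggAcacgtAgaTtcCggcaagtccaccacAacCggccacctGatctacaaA
Eef1a2: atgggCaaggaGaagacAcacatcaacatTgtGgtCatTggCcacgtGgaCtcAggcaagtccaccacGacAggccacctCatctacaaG
Over the whole coding sequence, 80.1% of the 1386 aligned bases were identical, and no window of 50 bases was shared. The helicases eIF4A1 and eIF4A2, which unwind the mRNA leader, are shown for the same reason. Eif4a1 lies on chromosome 11 (69666936 to 69672423, minus strand) and Eif4a2 on chromosome 16 (23107444 to 23114136, plus strand), and their last 90 coding bases differ at 16 positions, in capitals.
Eif4a1: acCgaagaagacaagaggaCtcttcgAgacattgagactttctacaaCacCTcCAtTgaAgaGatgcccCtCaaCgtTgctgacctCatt
Eif4a2: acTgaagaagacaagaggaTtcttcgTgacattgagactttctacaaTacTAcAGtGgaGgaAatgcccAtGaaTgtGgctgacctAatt
Here 77.8% of 1218 aligned bases were identical, again with 0 shared windows of 50 bases.

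Other members share sequence with further genes. Of the 64 members, 14 had at least 20% of their coding windows of 50 bases in another annotated gene, and 33 had 0 such windows. Eef1a1 shared 72.6% of its windows with 18 other genes, 5 of them pseudogenes that each held at least 20% of them, and none of these 5 has a row in the tables. Eef1g shared 81.5% of its windows with a single pseudogene, and Eif4a1 and Eif1 shared 96.3% and 94.5% with other genes, so that these counts depend on how reads were shared out and are uncertain to that extent. Eif3j1 and Eif3j2, which encode the same eIF3 subunit, were identical over all 783 aligned coding bases. In the 17 libraries of the aging and overexpression experiments, exactly one of this pair had reads and the other was at 0, with Eif3j1 counted in 5 libraries and Eif3j2 in 12. No value of the pair is therefore interpreted as a difference between these genes, although both stay in the counts of members and initiation factors below. Their summed normalized count was between 55.0 and 106.5 in young and at 10.1 and 32.6 in aged libraries.

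Depth ran from 7969282 to 9537872 reads per library for aging, from 9943996 to 17034325 for overexpression and from 48902 to 358560 for knockdown. So few reads left 18 of the 64 members with the mean normalized count of 10 (reads divided by a size factor per library) needed for a test in the knockdown table, where the other tables had 62 and 63, and the 46 others had at most 38 reads in a library. Ftl1 itself went against the labels of both virus experiments. Its mean was lower in the libraries labelled Ftl1 OE (5968 ± 1250 SD, n = 7, against 11515 ± 9580, n = 5, with overlapping groups and an adjusted p of 0.681 by limma) and higher in those labelled Ftl1 KD (118.1 ± 15, n = 4, against 43.8 ± 13.7, n = 4, adjusted p = 2.2e-04), so directions are given for the libraries as labelled. Among cell type markers the sum over those of neurons led each table, with summed counts of 56559 to 81219 for 8 genes in the overexpression libraries. There, 6 oligodendrocyte markers summed to 22584 to 47563 and 5 astrocyte markers to 4322 to 28204. The single marker with the highest mean there was Mbp of oligodendrocytes, with 23101 in OE control and 27420 in Ftl1 OE libraries. The neuronal Slc17a7 had 23015 and 19663.

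The factors differed widely in level. In the young libraries, per kilobase of transcript, Eef1a1 was the highest member with a normalized count of 2206 ± 551 (SD, n = 3), followed by Eif5a, which eases peptide bonds at difficult codons, with 1282 ± 326. Eif4a2 and Eif4a1 came next with 1023 ± 124 and 1023 ± 191 per kilobase, and their ranges overlapped. The eIF4A cofactor Eif4h (794 ± 150), the start codon factor Eif1 (723 ± 113) and Eef2 (652 ± 93.6) followed, and the ranges of neighbours in this order overlapped from Eif5a to Eef2. The lowest Eef1a1 library (1646) lay above the highest Eif5a library (1575). The median member stood at 198 per kilobase, 9 members lay above 500 and 12 below 50. Eef1a2 stood at 22.8 ± 11.4 per kilobase, 97-fold below Eef1a1.

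Within the complexes, the highest members in the young libraries were Eif2s3y of eIF2 (414 ± 21.7 per kilobase), Eif2b4 of the exchange factor eIF2B (340 ± 46.2), Eif2d of the alternative tRNA delivery factors (236 ± 44.0) and Eif3g of eIF3 (542 ± 135). Among the regulators it was Eif4enif1, which carries eIF4E into the nucleus, with 204 ± 40.3 per kilobase, and Eif4a3, the helicase of the exon junction complex, led the other genes with 352 ± 112. The kinases of eIF2 that sense unfolded protein (Eif2ak3, 32.7 ± 9.83) and amino acid shortage (Eif2ak4, 78.7 ± 0.441) stood beside their substrate Eif2s1 (59.0 ± 22.1), Eif2ak4 above it in each young library. The eEF2 kinase (Eef2k, 55.1 ± 9.93) lay below Eef2. Eif4ebp2, the main eIF4E-binding protein of brain, was at 8.11 ± 5.89 per kilobase and the interferon-induced kinase Eif2ak2 at 2.21 ± 1.35. Eif4e1b, a germ cell form of the cap-binding protein, had 0 reads in all 25 libraries.

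**Figure D1:**
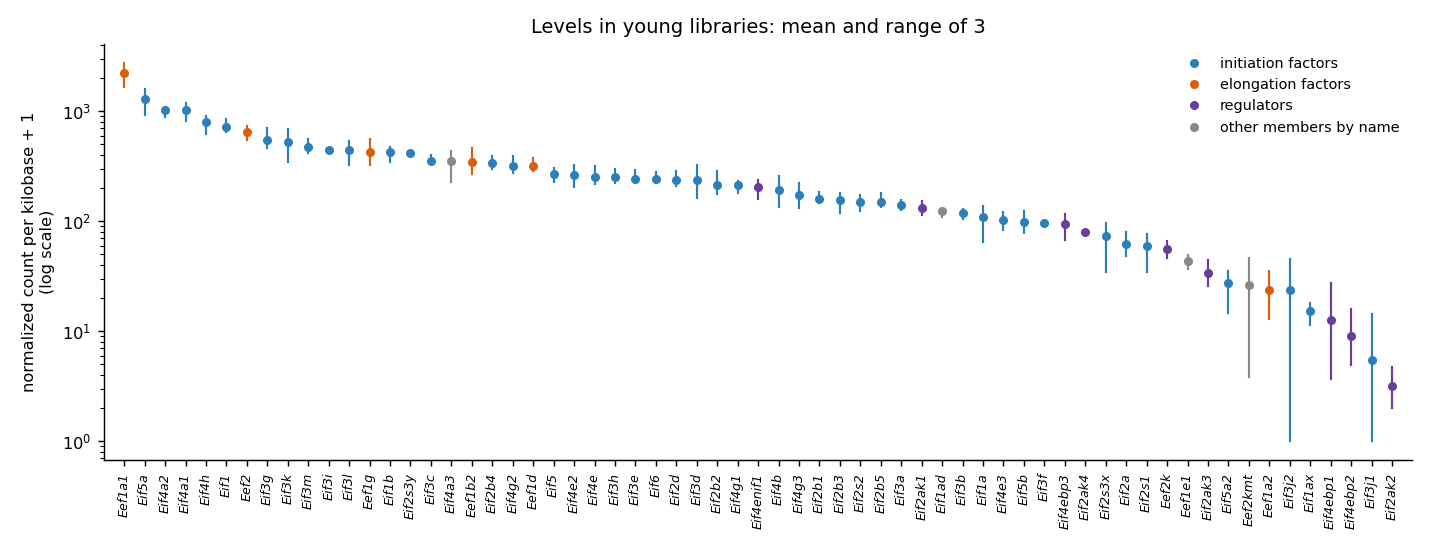
Normalized count per kilobase of transcript plus 1 (log axis) of 63 members in the young libraries, ordered by their mean. Points are means of 3 libraries, lines run from the lowest to the highest library and colours give the role, with Eef1a1 first and Eef1a2 among the 12 members below 50.

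With age, no member passed the test, and the family as a whole stayed near the centre of all genes. The median log2 fold change of the 62 members tested was 0.02, beside -0.03 for all 13712 genes tested, with 34 members higher and 28 lower in aged libraries. In bulk nuclei, fewer nuclei of a type and less RNA per nucleus cannot be told apart. By limma at an adjusted p of 0.05 and a log2 fold change of 0.5, 0 members and 0% of all genes were called. On the recovered reads, edgeR called 0 genes and DESeq2 138, none of them a member. At an unadjusted p of 0.05, 3 members passed, all lower in aged libraries, which is 3 of 62 where 7.94% of all genes did. The groups did not overlap for 14 members, 6 higher and 8 lower, where 24.7% of all genes were separate in this way.

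The member with the smallest p was Eif2b2, the beta subunit of eIF2B, which reloads eIF2 with GTP. Its normalized count was 283.1, 459.1 and 284.9 in young mice, against 146.3 and 127.7 in aged mice. Every aged value was thus below every young one, with a log2 fold change of -1.28 ± 0.42 (SE), yet the adjusted p of limma was 0.519, and an exact two-sided permutation test of 3 against 2 libraries cannot go below 0.1. Of the other 4 eIF2B subunits, Eif2b4 lay at -0.01 and Eif2b1 at 0.16. Eif2b3 had 276.9, 268.2 and 182.8 in young against 366.7 and 313.3 in aged libraries, and Eif2b5 was also separate and higher (log2 fold change 0.37 ± 0.34).

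Eif3c, a core subunit of eIF3, had 1111, 1336 and 1150 normalized counts in young and 651.3 and 853.4 in aged libraries (log2 fold change -0.68 ± 0.28, adjusted p = 0.609 by limma). Within eIF3, 9 of the 14 genes tested were higher and 5 lower, with a median of 0.06, where Eif3j2 was counted as higher and Eif3j1 as lower. Eif2d, which can deliver initiator tRNA without eIF2, had 618.1, 447.4 and 461.5 in young against 385.4 and 199.4 in aged libraries (log2 fold change -0.86 ± 0.39, adjusted p = 0.615). The cap-binding protein gene Eif4e had 1081, 1114 and 1569 against 832.2 and 815.8, with a log2 fold change of -0.58 ± 0.29, and Eif4a2 was separate and lower too (-0.50 ± 0.28). In the other direction stood Eif1 (0.44 ± 0.28), Eif4b, which stimulates eIF4A (0.51 ± 0.33), and Eif4g3, a scaffold of the cap complex (0.44 ± 0.34). All of these missed the threshold, and several moved with 1 library. Without aged replicate 2, Eif4g3 was at 0.01, Eif4a2 at -0.25 and Eif2d at -1.33, and without aged replicate 3 they were at 0.88, -0.74 and -0.38. Eif4b was at 0.26 without young replicate 1, and Eif2b3 at 0.31 without young replicate 3.

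Elongation factors lay between -0.33 and 0.51 in log2 fold change with age, 5 of 6 with a positive value, with a median of 0.10. This rested on single libraries, since the median was -0.05 with 2 of 6 positive without young replicate 1, 0.05 with 3 of 6 without aged replicate 3, 0.23 without young replicate 2 and 0.35 without aged replicate 2. With the replicate number as a block it was the same -0.05, since number 1 occurs in young libraries only and this fit equals leaving out young replicate 1. Eef1a1 had 2954, 4929 and 3989 normalized counts in young and 3511 and 5048 in aged libraries, and Eef2 had 1703, 2275 and 2060 against 1782 and 2480. In both genes the groups overlapped, and aged replicate 3 was the highest of all. Eef1g, the gamma subunit of eEF1B, had the largest positive value of the elongation factors, 0.51 ± 0.34 (adjusted p = 0.72 by limma), and 0.13 without aged replicate 3 against 0.88 without aged replicate 2. The median of the elongation factors minus that of the 44 initiation factors tested was 0.10. Of 8 regulators tested, 5 were higher and 3 lower, Eif4ebp3 with the largest value (0.73 ± 0.64).

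**Figure D2:**
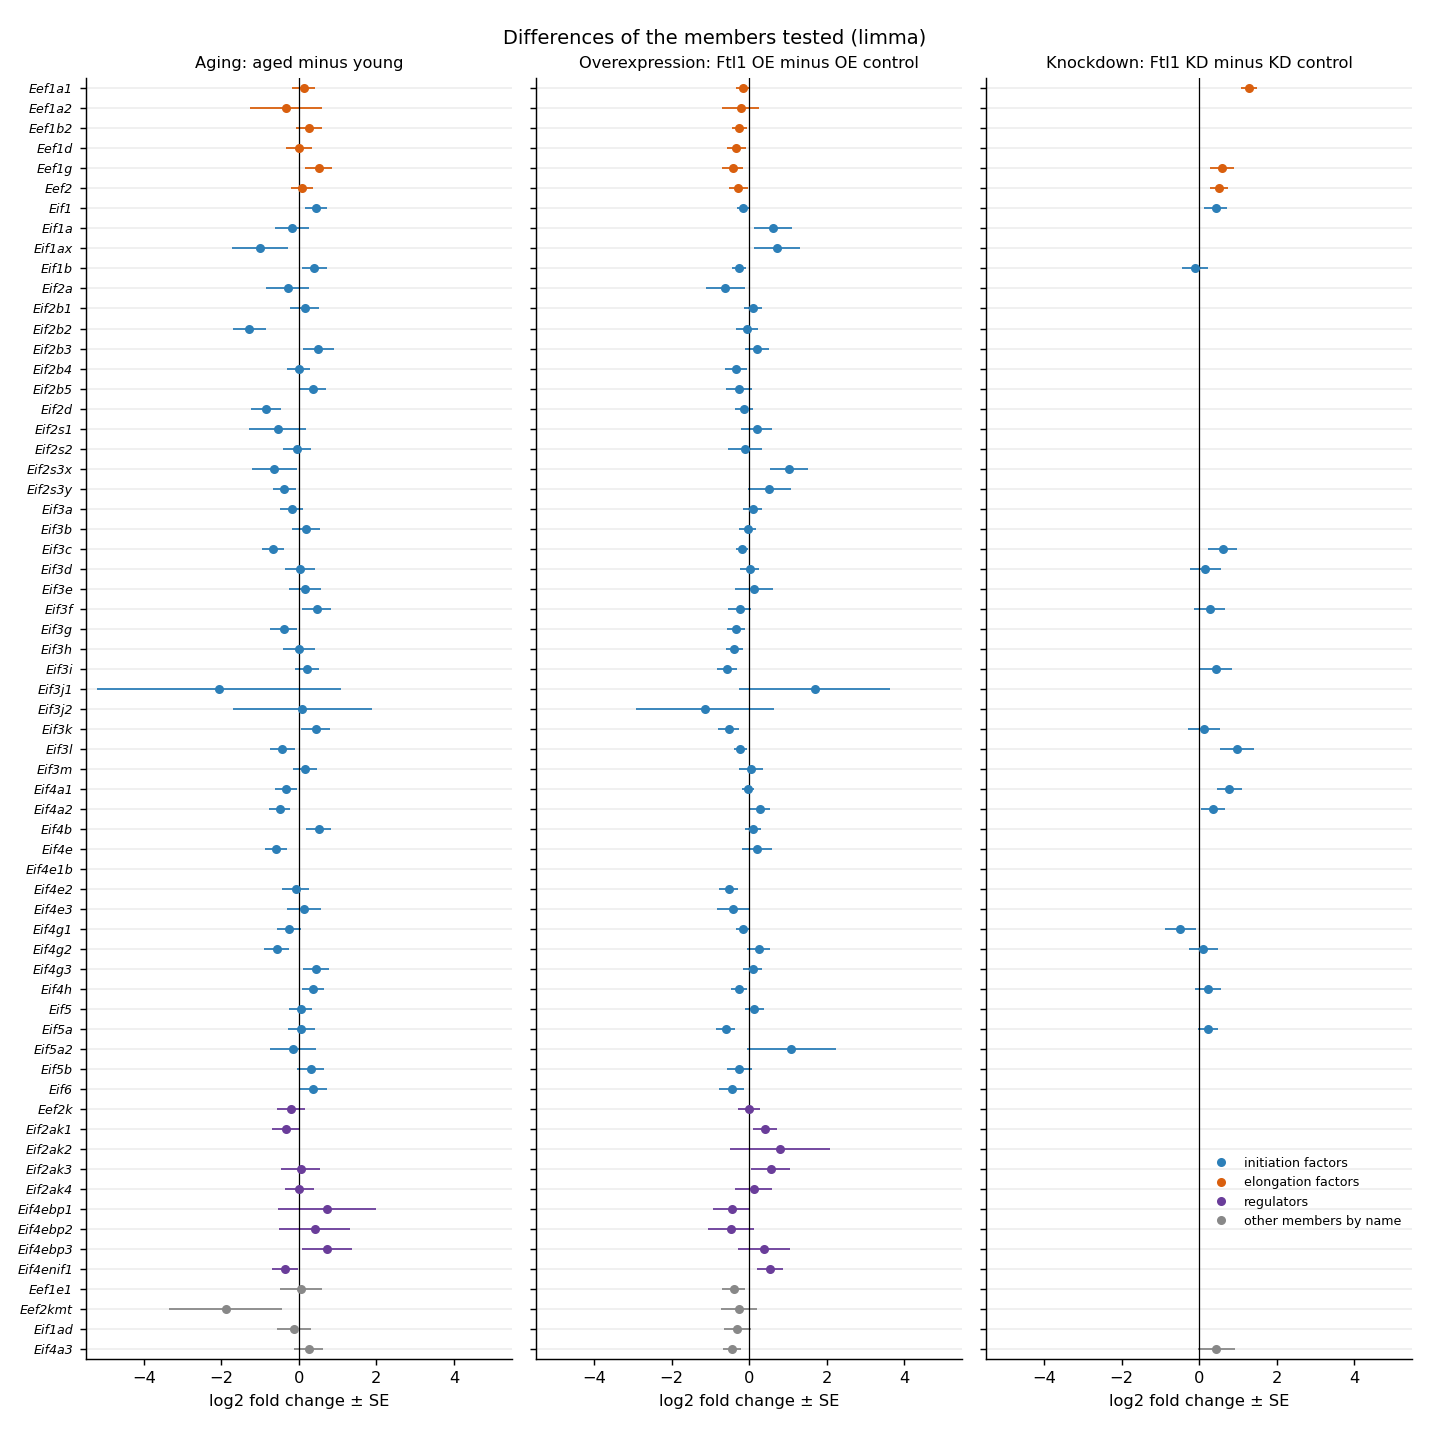
Log2 fold change with its standard error (limma on log2 of the normalized count plus 1) of each member tested, in rows by role, for aged minus young, Ftl1 OE minus OE control and Ftl1 KD minus KD control libraries. In the knockdown panel 16 of 18 points lie to the right of 0, Eef1a1 farthest, and rows without a point were below the filter. With no filter, 40 members were positive and 23 negative there.

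In the libraries labelled Ftl1 OE, members lay lower than the typical gene, but none passed the test. Their median log2 fold change was -0.15 over 63 members tested, with 26 higher and 37 lower (19 and 44 in DESeq2), whereas the median of all 14099 genes tested was 0.10 (-0.02 in DESeq2). By limma, 0 members and 0% of all genes were called. On the recovered reads, edgeR called 0 genes and DESeq2 91, none of them a member. At an unadjusted p of 0.05, 3 members passed, all lower, where 7.26% of all genes passed. The groups overlapped for all 63 members, and 0.582% of all genes were separate.

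All 6 elongation factors had a negative log2 fold change in the libraries labelled Ftl1 OE, from -0.42 for Eef1g to -0.15 for Eef1a1, with a median of -0.27. This direction held for all 6 under TMM scaling and median centring and in edgeR and DESeq2, and for 5 of 6 without OE control replicate 9926. Eef1a1 had 10190, 9874, 7186, 9019 and 5945 normalized counts in the controls, with a lowest value of 6076, a median of 7662 and a highest of 7939 in the 7 Ftl1 OE libraries. The Ftl1 OE values all fell inside the control range. Eef1g had 2383, 2111, 6003, 3199 and 4093 in the controls and 1594, 2649 and 3464 as the lowest, median and highest Ftl1 OE values (adjusted p = 0.717 by limma), and control replicates 9905 and 9926 held its highest counts.

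Those same control libraries were high in the members counted as initiation factors that had the smallest p. Eif5a, whose product carries the amino acid hypusine, had 7130, 5590, 13772, 8330 and 11213 in the controls (in the order 9901, 9904, 9905, 9925 and 9926) and 3891, 6318 and 8261 as the lowest, median and highest Ftl1 OE values. Its log2 fold change was -0.60 ± 0.25 (adjusted p = 0.629 by limma). Eif3i, a subunit of eIF3, had 2044, 1417, 3663, 2269 and 4133 in the controls, where Ftl1 OE libraries ran from 1235 to 2531, with a log2 fold change of -0.57 ± 0.26. Replicates 9905 and 9926 were again the 2 highest. Eif4e2, a cap-binding repressor of translation, had 518.8, 543.4, 1009, 595.1 and 795.5 in the controls, where Ftl1 OE libraries ran from 348.9 to 591.2 (log2 fold change -0.53 ± 0.24). Eif4a3 (-0.44 ± 0.22), which is counted among the other genes and not the initiation factors, and Eif3k (-0.53 ± 0.27) followed in order of p. The same 2 control libraries were among those with the fewest genes with a read, 12281 and 13495, where the experiment reached 15602, and their part in these values was not tested. Microglial markers also moved with the label, with 5 of 6 lower, 4 of them at an unadjusted p of 0.05, and summed counts of 1689 to 4684 in the controls against 729.4 to 2010. That part, too, was not tested.

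Among the regulators, positive values were the more frequent. Of 9 regulators tested, 7 were higher in libraries labelled Ftl1 OE, with a median log2 fold change of 0.38, and none passed. The median was 0.11 in edgeR and 0.10 in DESeq2 (6 of 9 higher), and 0.08 and 0.03 without OE control replicates 9905 and 9926. Eif4enif1 had 218.8, 544.6, 258.3, 517.9 and 285.3 in the controls and 300, 488.8 and 1005 as the lowest, median and highest Ftl1 OE values (log2 fold change 0.55 ± 0.33). The heme-regulated kinase Eif2ak1 had a value of 0.40 ± 0.31, the kinase Eif2ak3 0.55 ± 0.50, and Eif2ak4 0.11 ± 0.48. Eef2k lay at 0.00 ± 0.29 and Eif4ebp2 at -0.46 ± 0.59. Eif2s3x, the X-linked gamma subunit of eIF2, had the smallest p among the positive values, with 345.1, 52.9, 209.6, 219.3 and 125.2 in the controls and 137.2, 370 and 528.8 as the lowest, median and highest Ftl1 OE values (log2 fold change 1.03 ± 0.48, adjusted p = 0.672 by limma). Eif1a (0.62 ± 0.49) and Eif1ax (0.71 ± 0.60), which encode forms of eIF1A, followed. Without OE control replicate 9905 these were at 0.11 and 0.24, Eif1ax was at 0.23 in edgeR and 0.22 in DESeq2, Eif2ak1 was at 0.03 without OE control replicate 9926, and Eif2s3x was at 0.63 without OE control replicate 9904. All these groups overlapped. The log2 fold change was higher for longer transcripts, both over the 63 members tested (Spearman's rho across genes 0.43) and over 13547 tested genes with a length (0.27). It was lower for genes of higher level, with a rho of -0.29 over the members and -0.24 over all these genes. Genes are not independent replicates, and the parts of length and level were not tested.

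In the knockdown experiment, one member passed the test. Eef1a1, the eEF1A gene with the highest level, rose 2.42-fold in the libraries labelled Ftl1 KD. Its normalized count was 93.4, 104.9, 123.6 and 72.3 in KD control replicates 1, 2, 3 and 5, from 66 to 260 reads, and 237.8, 260.6, 240.5 and 216 in Ftl1 KD replicates 1, 3, 4 and 5, from 132 to 289 reads. The lowest Ftl1 KD library thus stood well above the highest control. The log2 fold change was 1.29 ± 0.21 (SE), with an adjusted p of 9.5e-05 by limma, 1.8e-05 by edgeR and 9.7e-09 by DESeq2, and it ran from 1.15 to 1.41 when each library was left out in turn. Among all 1460 genes tested, 24.2% were called, 10.5% as higher, so that 1 call among 18 members is below the share of all genes.

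The other elongation factors tested had values of the same sign. Eef2 had 39.6, 59.3, 54.3 and 47.2 normalized counts in the controls and 73.8, 70.4, 63.8 and 74.9 in the Ftl1 KD libraries. These groups did not overlap, but the log2 fold change of 0.50 ± 0.23 had an adjusted p of 0.107 by limma. Eef1g had 15.1, 36.7, 14.98 and 20.1 against 34.5, 32.5, 27.3 and 29.4, with a log2 fold change of 0.58 ± 0.30 (adjusted p = 0.157), and KD control replicate 2 alone reached the Ftl1 KD values. Without that library, Eef1g had a log2 fold change of 0.86 and an adjusted p of 0.0452, and 2 members were called. The eEF1B subunits Eef1b2 and Eef1d and Eef1a2 were below the filter, with at most 17.1, 12.5 and 4.18 normalized counts in a library.

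**Figure D3:**
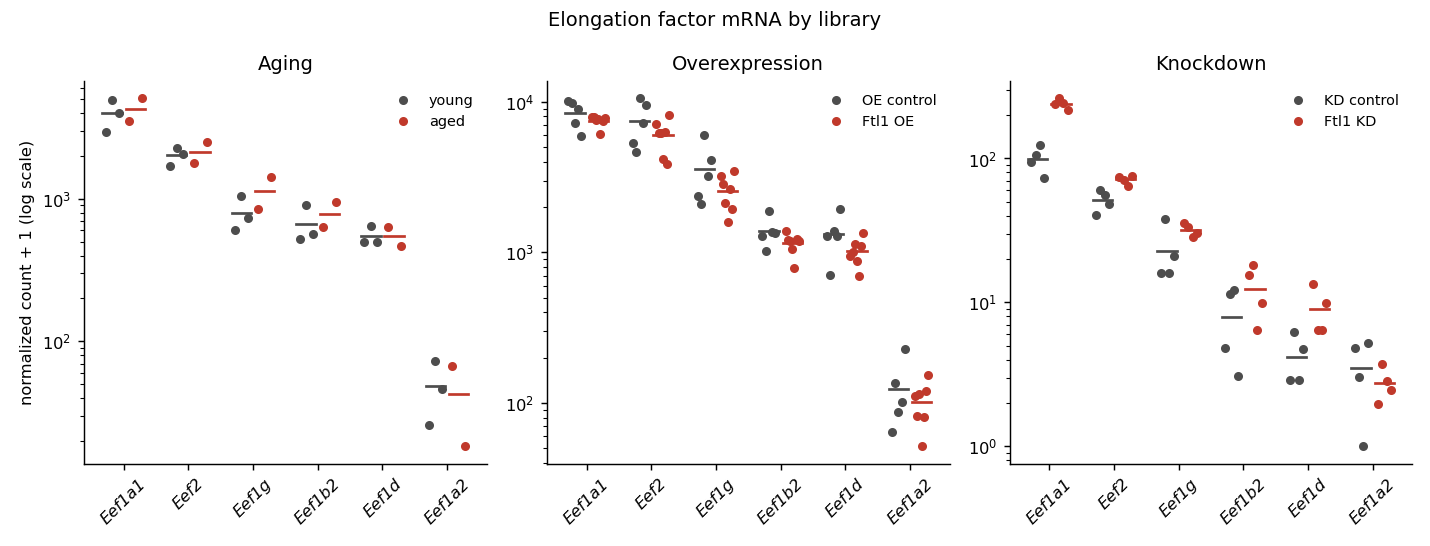
Normalized count plus 1 (log axis) of the 6 elongation factors in each library of the 3 experiments, points for libraries and bars for group means. The Ftl1 KD values of Eef1a1, from 216 to 260.6, lie above all control values, and Eef1a2 has the lowest mean of the 6 in each group.

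No initiation factor was called in the same libraries. Of 14 tested, 12 had a positive and 2 a negative log2 fold change, with a median of 0.24, against 0.58 for the 3 elongation factors tested and -0.01 for all genes, and the difference between these classes was not tested. Eif4a1 had 23.6, 23.8, 7.49 and 19.2 normalized counts in the controls and 32.6, 33.4, 23.7 and 30.8 in the Ftl1 KD libraries, with a log2 fold change of 0.78 ± 0.33 (adjusted p = 0.0818 by limma). It was called only under centring on the median of all genes, with an adjusted p of 0.0497. Eif3l, a peripheral subunit of eIF3, had 6.61, 11.7, 11.2 and 2.93 against 11.5, 15.3, 18.2 and 16.2 (log2 fold change 0.96 ± 0.44, adjusted p = 0.107). All 6 eIF3 subunits tested had positive values, from 0.12 to 0.96. The 2 negative values were those of the scaffold Eif4g1 (-0.48 ± 0.40), for which KD control replicate 5 had 29.7 against 8.07 to 15.1 in the other controls, and of Eif1b (-0.11 ± 0.34), whose sign turned under some settings. The filter takes the mean over both groups, so a low gene that rises can pass it and one that falls can drop out. Below it, Eif3a, Eif3e and Eif3h had higher means in the Ftl1 KD libraries, and Eif3b, Eif3g and Eif3m lower ones. With no filter, 30 of 44 initiation factors had positive and 14 negative values, and of all members 40 were positive and 23 negative. At an unadjusted p of 0.05, 4 of 18 members passed, all higher, where 38.2% of all genes passed, and 2 members were separate, where 23.8% of all genes were.

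The share of each class in the summed level of the family does not depend on the scaling between libraries. Per kilobase, Eef1a1 made up 15.5 to 23.8% of the level of all 64 members in the KD control libraries and 28.5 to 34.0% in the Ftl1 KD libraries. All elongation factors together made up 27.5 to 35.0% against 40.4 to 45.2%, and initiation factors 61.5 to 68.8% against 51.4 to 55.7%. The groups did not overlap in any of these shares, all of which contain or complement Eef1a1. The other 5 elongation factors made up 9.65 to 14.5% in the controls and 10.7 to 13.4% in the Ftl1 KD libraries, and these overlapped. As a share of the members without Eef1a1, they made up 12, 17.6, 14.7 and 14.2% in KD control replicates 1, 2, 3 and 5. In Ftl1 KD replicates 1, 3, 4 and 5 this share was 19.5, 18.1, 16.2 and 16.7%. KD control replicate 2 alone reached the Ftl1 KD values. The share of the elongation factors was 19.5 to 23.4% in young and 21.5 to 24.7% in aged libraries, and 17.3 to 19.9% and 18.1 to 19.5% in OE control and Ftl1 OE libraries, so that these groups overlapped.

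**Figure D4:**
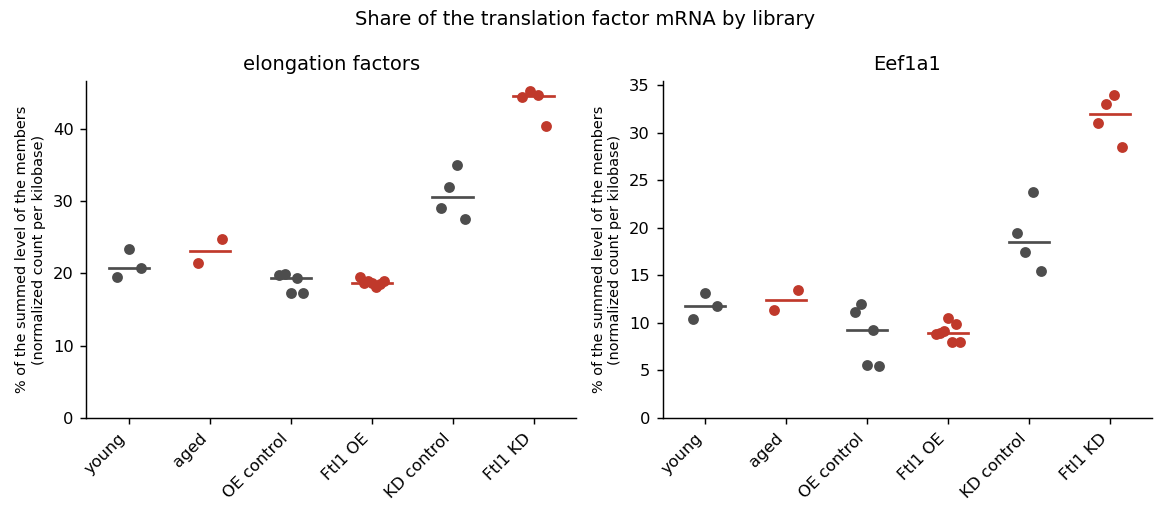
Share in percent of the summed normalized count per kilobase of all 64 members that came from the 6 elongation factors (left) and from Eef1a1 alone (right), by group, with a point for each library and a bar at the median. Ftl1 KD libraries, at 40.4 to 45.2% and 28.5 to 34.0%, lie above all others of both panels.

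Other classes of RNA moved with the label in the knockdown experiment. RNAs that stay in the nucleus, such as Malat1 and Meg3, were lower, with 4 of 4 tested called and separate and a median log2 fold change of -1.83, and their summed normalized count over 7 genes was 619.2 to 1235 in the controls and 218.6 to 322.2 in the Ftl1 KD libraries. Summed counts of 84 ribosomal protein genes were 775.8 to 1101 in the controls and 1180 to 1251 in the Ftl1 KD libraries, with 4 of 45 tested called, all higher. Of all 1460 genes tested, 24.2% were called, 10.5% as higher, so that these 4 calls are below the share of all genes. The 6 oligodendrocyte markers summed to 36.8 to 93.6 in the controls and 10.9 to 21.6 in the Ftl1 KD libraries (2 of 2 tested called lower), and the 5 astrocyte markers to 14.98 to 36.8 and 37.0 to 55.8 (1 of 1 tested called higher). The astrocyte marker called was Slc1a3, with means of 5.56 and 25.4. Gfap, below the filter, went the other way, with 6.27 to 18.9 in the controls and 3.64 to 5.75 in the Ftl1 KD libraries. The means of Aqp4, Aldh1l1 and Gja1 were higher there. The 8 neuronal markers summed to 198.5 to 297.3 and 225.9 to 242.6, and of 5 tested the inhibitory marker Gad1 was called higher (log2 fold change 1.49 ± 0.36, adjusted p = 0.0038) and the excitatory marker Slc17a7 lower (-1.35 ± 0.46, adjusted p = 0.0327). Endothelial markers were at 0 in all controls. Longer transcripts had lower log2 fold changes over 1423 tested genes with a length (Spearman's rho across genes -0.375). Over the 18 members tested, this rho was -0.022. The part of these shifts and of length in the result for Eef1a1 was not tested. The ribosomal RNA gene Rn45s took 31.9, 55.3, 52.9 and 49.4% of control reads, against 30.3 to 34.5% in the Ftl1 KD libraries. KD control replicate 1, with the lowest of these control shares, had an Eef1a1 count of 93.4. The part of the Rn45s share in the result for Eef1a1 was not tested.

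Members known to carry a 5′ TOP include 5 of the 6 elongation factors and are thus no separate evidence. With age, 9 of 9 had a positive log2 fold change, from 0.00 to 0.51 with a median of 0.15, and none was called. Under TMM scaling 7 were positive and in edgeR 8, and 4 of 9 were positive without aged replicate 3 (median -0.03) and 5 without young replicate 1 (0.08), while the median was 0.55 without aged replicate 2 and 0.29 without young replicate 2. In the libraries labelled Ftl1 OE, 7 of 9 were negative with a median of -0.26. In the libraries labelled Ftl1 KD, 4 of 4 tested were positive with a median of 0.54, of which Eef1a1 alone was called. Ribosomal proteins, whose mRNAs carry the same tract, gave medians of 0.60 over 82 genes, -0.71 over 81 and 0.46 over 45 in the same order, 75, 3 and 41 of them with a positive value. The 3 experiments share no library, and the difference between them was not tested.

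Paralogue ratios were compared within libraries, where the scaling cancels. Over the 23 comparisons of pairs whose genes both passed the filter, no ratio passed the threshold (exact two-sided permutation tests, smallest adjusted p 0.836). The 10 aging tests could not pass it, since their smallest possible p was 0.1, and that of the 3 knockdown tests was 0.0286 before adjustment. The identical pair Eif3j1 and Eif3j2 is among the 23 and is not interpreted. The log2 ratio of Eef1a2 to Eef1a1 was -6.83, -6.08 and -6.43 in the young and -5.71 and -8.10 in the aged mice. The 2 aged libraries lay on either side of the young ones, and the means differed by -0.45 (p = 0.80, exact permutation test, smallest possible p 0.1). In the overexpression experiment the ratio was -7.30, -6.18, -6.36, -6.46 and -4.70 in the controls and ran from -7.21 to -5.67 over the 7 Ftl1 OE libraries, a difference of means of -0.06 (p = 0.907, exact permutation test). Leaving out OE control replicate 9926, which holds the least negative ratio, turned this to 0.31. In the knockdown libraries Eef1a2 had between 0 and 10 reads, and the ratio of -3.82 to -6.96 in the controls and -6.14 to -6.93 in the Ftl1 KD libraries is given without a test.

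Eif4a2 and Eif4a1 were close to equal in normalized count. Their log2 ratio was 0.42, 0.20 and 0.36 in the young and 0.06 and 0.25 in the aged libraries, a difference of -0.17 (p = 0.3, exact permutation test). In the overexpression experiment it ran from -0.90 to 1.09 in the controls and from -0.18 to 0.73 in the Ftl1 OE libraries, and in the knockdown experiment from -0.61 to 0.73 and from -0.81 to 0.10. The control libraries thus spread more widely than the others in both. Eif4g2, which lacks the eIF4E-binding part of the scaffold Eif4g1, had the smallest unadjusted p of all ratios. Its log2 ratio to Eif4g1 was 0.08, -0.21, 0.21 and -0.93 in the KD controls and 0.45, 0.11, 0.62 and 0.33 in the Ftl1 KD libraries (p = 0.0571, adjusted p = 0.836, exact permutation test, smallest possible p 0.0286).

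Of the remaining pairs, Eif1b lay below Eif1, with a mean log2 ratio of -1.13 in young and -1.17 in aged, -1.71 in OE control and -1.82 in Ftl1 OE, and -0.57 in KD control and -1.10 in Ftl1 KD libraries. Eif5a2 lay far below Eif5a, at -3.86 and -4.08 in young and aged and at -7.94 and -6.25 in OE control and Ftl1 OE libraries. Eif4e2 lay below Eif4e in both deeper experiments, with means of -1.42, -0.92, -0.74 and -1.47 in the same order of groups. Eif4g3 against Eif4g1 gave -0.22, 0.49, -1.25 and -0.99, and Eif4ebp2 against Eif4ebp1 gave 1.33, 1.02, -0.50 and -0.52. The Y-linked Eif2s3y exceeded its X-linked partner Eif2s3x on average in the aging libraries (1.68 and 1.94). In the overexpression libraries the means were 0.24 and -0.26, and single libraries ran from -2.54 to 3.49 in the controls and from -1.26 to 1.88 in Ftl1 OE. In the knockdown libraries, Eif2s3y had 1 to 11 reads in each control and 1, 0, 0 and 0 in the Ftl1 KD libraries, with Eif2s3x at 2 to 12 reads, and the difference was not tested.

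**Figure D5:**
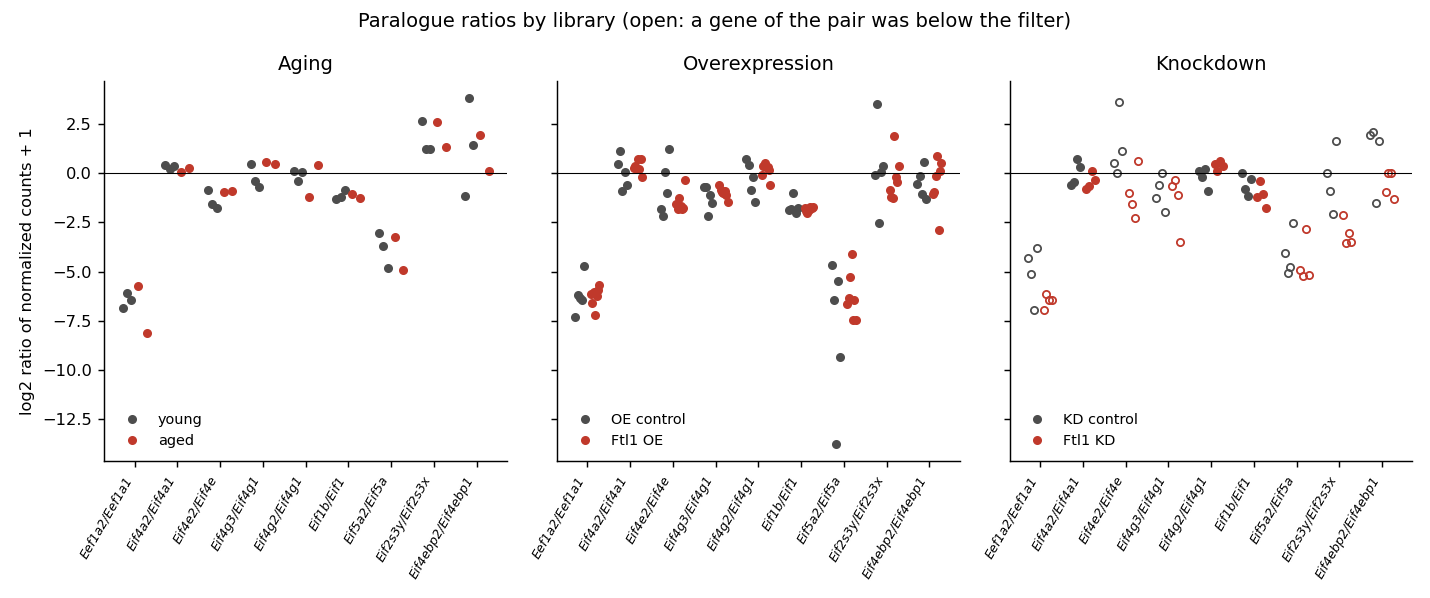
Log2 ratio of the normalized counts plus 1 of 9 paralogue pairs in each library of the 3 experiments, without the identical pair Eif3j1 and Eif3j2. Filled points belong to pairs that were compared and open points to pairs with a gene below the filter, and Eef1a2 lies far below Eef1a1 in every library, between -8.10 and -3.82.

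Genes that act on the factors moved in few cases. In the aging and overexpression experiments, none of the genes for release and recycling, poly(A) binding, mTOR and MNK input, the integrated stress response, hypusine and diphthamide synthesis, neuronal repressors of translation and mitochondrial translation was called by limma or edgeR. Ppp1r15b, which directs the phosphatase that reverses eIF2 phosphorylation, had the smallest p of these lists in both, with 457.3 to 670.1 normalized counts in young against 226 to 234.2 in aged libraries (log2 fold change -1.24 ± 0.35, adjusted p = 0.441 by limma). It had 261 to 670 in OE control against 612 to 1159 in Ftl1 OE libraries (1.04 ± 0.26, adjusted p = 0.499). DESeq2 on the recovered reads called Ppp1r15b as the one gene of these lists, with an adjusted p of 0.04 and a log2 fold change of 0.98 in the overexpression experiment, and gave an adjusted p of 0.0543 for aging (0.0475 on the reads of all genes). Ddit3, a transcription factor of the stress response, had a value of -0.97 ± 0.34 in the libraries labelled Ftl1 OE, and Rps6, a ribosomal substrate of the mTOR pathway, one of -0.52 ± 0.20. Of 9 stress response genes tested there, 6 had positive and 3 negative values, with a median of 0.19. Paip1 of the poly(A) list had 9.47 to 197.9 normalized counts in OE control and 199.3 to 458.4 in Ftl1 OE libraries (1.99 ± 0.67, adjusted p = 0.546 by limma). In the knockdown experiment, Mtor fell, with 11.3 to 30.2 normalized counts in the controls and 1.47 to 9.11 in the Ftl1 KD libraries (log2 fold change -1.85 ± 0.51, adjusted p = 0.00919), as 1 of 3 genes tested of the mTOR and MNK list. Gcn1l1, which activates the kinase Eif2ak4, fell as 1 of 2 tested of the stress response list, from 35.4 ± 10.6 to 17.01 ± 4.42 (SD, n = 4 each, adjusted p = 0.0162 by limma), while Atf4 had 0.33 ± 0.34. Rps6 had a positive value there, 0.83 ± 0.34 (adjusted p = 0.0696). The release, poly(A) and mitochondrial lists had 0 genes above the filter in the knockdown libraries.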

How the data were processed

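Neuronal nuclear RNA of mouse hippocampus was sequenced in 25 libraries, grouped by the sample labels. The authors used STAR for alignment to mm10, RSEM for quantification and DESeq2 for normalization. The release of the annotation is not given in the sources used here. Per the labels the libraries were polyA-enriched and strand-specific, whereas the study's methods describe Smart-seq2 with Nextera. Each deposited table gives 24411 genes as a normalized count, a signal in which reads are divided by the size factor of a library, so levels are comparable within a table only. The authors' own fold changes, test statistics and p-values beside them were not used, and 0 library columns were left unused. Values were whole multiples of 1 step per library (tolerance 0.1 read), which returned whole reads for 100% of values. No library was a copy of another: the lowest chi-square per degree of freedom between libraries of one group was 26.4 for aging, 40.5 for overexpression and 1.55 for knockdown.

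R 4.3.3 with limma 3.58.1 compared groups on log2(normalized count + 1), the prior variance following the mean level, with no covariate, for all genes with a mean of at least 10, with Benjamini-Hochberg adjustment over all of them. Fold changes on this scale understate those of low genes. Calls needed an adjusted p of 0.05 or less and, in the aging table, a log2 fold change of at least 0.5 in size. Alternatives were pseudocounts of 0.5 and 5, no filter, TMM scaling, median centring, edgeR 4.0.16 and DESeq2 1.42.0 on recovered reads, the replicate number as a block, Eif5a and Eif5a2 counted as elongation factors, and leaving out each library. DESeq2 on the reads of all genes was added after seeing the data. The tests were checked on simulated data. Paralogue ratios used exact two-sided permutation tests over libraries, adjusted over 23 comparisons.

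Positions and coding sequences were read from GENCODE M21 (GRCm38, the same assembly as mm10). All 64 members matched by symbol. Levels per kilobase used the longest principal transcript of a gene, or, for Eef1d and Eif4g2, whose principal transcript lacks most of the coding sequence, a longer coding one. Named were both genes of each pair, members called, the 5 members of smallest p in each direction per experiment, the highest member of each role in young libraries and the regulators Eif2ak3, Eif2ak4, Eif4ebp2 and Eef2k. Eef1b2, Eef1d, Eif2b1, Eif2b5, Eif2s1, Eif4ebp3, Eif2ak2, Eif4e1b and Eif4h were added after their values were seen. The members and gene lists were chosen with earlier results of these data known. Plots were drawn with Python 3.11.15 and matplotlib 3.10.9.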

Additional observations from a re-analysis of the deposited data

Results flagged for a closer look

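Among 116 sets of 4 to 10 libraries examined for one value far from the rest, 10 (8.62%) held such a value, where chance gives about 1 in 20. In Ftl1 OE replicate 9918, Eef1a1 had a normalized count of 6076, below 7455 to 7939 in the 6 others, and Eif4enif1 had 1005, above 300 to 583.1. In Ftl1 OE replicate 9915, Eif2s3y had 669.2, above 172.8 to 295 in the others. In OE control replicate 9905, Eif4a3 had 4006, above 1966 to 2203, and the log2 ratio of Eif1b to Eif1 was -1.03, above -2.01 to -1.79. In Ftl1 OE replicate 9932, the log2 ratio of Eif4e2 to Eif4e was -0.37, above -1.83 to -1.29. OE control replicate 9901 alone among the controls had its reads on Eif3j1, with a normalized count of 201.2 where the others had 0, and a log2 ratio of Eif3j2 to Eif3j1 of -7.66 where the others had 4.11 to 8.69. In the knockdown experiment, Eif1 had 47.0 in Ftl1 KD replicate 5, above 25.2 to 27.8 in the others. The mean over members of the log2 level relative to the mean of all libraries was 0.0861 in Ftl1 KD replicate 4, the library with the fewest reads, below 0.216 to 0.231 in the other Ftl1 KD libraries.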

How the results depend on the processing

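The rise of Eef1a1 in the libraries labelled Ftl1 KD passed the threshold under all 17 alternatives, with an adjusted p of at most 0.00995. The count of members called there was 2 under median centring, which moved the median of all genes from -0.01 to 0.10, and 1 to 2 when each library was left out, with 2 without KD control replicate 2. The median log2 fold change of the members in that experiment, 0.39, was 0.27 with no filter and 0.50 under median centring. Leaving out libraries moved the difference of elongation and initiation medians from 0.34 to between 0.20 and 0.50 for knockdown, and from 0.10 to between -0.0227 and 0.42 for aging, the highest without aged replicate 2. The sign of Eif1b in the knockdown experiment turned under median centring (0.0016) and without KD control replicate 5 (range -0.25 to 0.0044). The difference in the log2 ratio of Eef1a2 to Eef1a1 ran from -1.65 to 0.74 for aging, turning without aged replicate 3, and from -0.34 to 0.31 for overexpression, turning without OE control replicate 9926 and, at 0.0960, without Ftl1 OE replicate 9915. No cause was tested. With 1 aged library left, its spread was taken from the young ones.

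With the replicate number as a block, the knockdown median was 0.49, the difference of medians 0.56, and 1 member was called, while calls over all genes fell from 354 to 173. In this fit KD control replicate 2 and Ftl1 KD replicate 4, whose numbers have no partner, did not add to the difference. For aging the block gave a median of -0.05 and 0 called, which is the same fit as without young replicate 1 and no further setting. Libraries with the same number did not deviate together (r of -0.034, -0.020 and -0.052 for knockdown and -0.054 and 0.024 for aging). With few reads per knockdown library and only 2 aged libraries, this check cannot decide whether the numbers pair them. DESeq2 called 138 and 91 genes for aging and overexpression where limma called 0. The shallow knockdown libraries left 46 members without a test.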
